A study of Rattus norvegicus with 13 samples.

Results

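Collagen chain genes encode the alpha chains that wind in threes into the triple helices of collagen. Genes of the deposited table were taken as members when their symbol had the form of Col, a type number, the letter a and a chain number, which found 38 of 14790 genes. Every one of the 38 passed the filter on low values, a mean of at least 1 normalized count. The rule used names alone and no measured value. By type, the members comprised 9 fibrillar chains, 6 basement membrane chains (type IV), 5 microfibrillar chains (type VI) and 18 chains of other types.

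The values came from RNA-seq of mammary epithelial cells (MEC) of Wistar-Furth rats, an inbred strain susceptible to mammary cancer, with no treatment in either group. MEC of 6 rats were taken at an age of 6 weeks, which lies inside a window of susceptibility (WOS), and MEC of 7 rats at 10 weeks, outside WOS, so each of the 13 libraries was 1 animal of a single strain. Abdominal and inguinal glands were minced, digested with type III collagenase and passed over a filter that retains ductal fragments and lets stromal cells through. Per the methods of the study, such fragments are mostly epithelial but still hold stromal fibroblasts and immune cells. Among the defining epithelial markers, Krt8, Krt18, Epcam, Krt5 and Krt14 were present in every rat, the lowest single value being 1016 normalized counts for Krt5, but so were all the fibroblast, pericyte, endothelial, macrophage and Schwann cell markers measured, so these values do not show a sample of epithelial cells alone. Normalized counts are RSEM gene counts that were scaled by library and rounded to whole numbers, and the scaled totals lay between 13261906 and 15659533 per rat.

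Chains of the fibrillar types make the load-bearing cables of the stroma and are known chiefly as products of fibroblasts. Type IV chains form the sheet-like network of the basement membrane on which mammary epithelium sits, and type VI chains form beaded filaments in the matrix next to it. In the mammary gland, ducts elongate through this matrix during puberty. A collagen chain is hydroxylated and folded in the endoplasmic reticulum, trimmed after secretion and crosslinked outside the cell, each step by its own enzymes.

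Of the 38 collagen chain genes, 23 were higher at 6 weeks, none was higher at 10 weeks and 15 did not pass the test. Log2 values of the normalized counts, with 1 added, were tested by limma, and p-values were adjusted by Benjamini-Hochberg across the 14790 genes with a threshold of 0.05. Of all genes, 8.71% were higher at 6 weeks and 7.39% at 10 weeks by the same rule. No collagen chain gene was higher at 10 weeks at an unadjusted p under 0.05 either. The log2 fold change, given throughout as 6 weeks over 10 weeks, was above 0 for 34 members and below 0 for 4, and its median was 0.91, against 0.028 over all genes. For 13 members every rat at 6 weeks lay above every rat at 10 weeks, which held for 3.29% of all genes. These are bulk samples, in which fewer cells of a type and less RNA per cell cannot be told apart.

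The rats did not differ by age alone. After the age means were removed, the first principal component of the table held 28.3% of the remaining variation. A cut at 0 set rats 75 and 80 (6 weeks) and rats 78, 81 and 83 (10 weeks) apart from the other 8. The scores ran from -45.8 to 64.4, and those nearest the cut were -4.02 (rat 70) and 23.2 (rat 83). No label names such a split, and its part in the collagen values was not tested. With this component as a term in the limma fit, 30 of the 38 members were higher at 6 weeks, against 12.7% of all genes in that fit. The component was taken from these same residuals, so as a term it leaves every log2 fold change as it was. It only takes up residual spread, so the rise to 30 is no separate check of the result. Among the 8 other rats, 4 of each age, 26 members and 13.4% of all genes were higher at 6 weeks, a set chosen after the data were seen. Among the 5 rats 0 of the 14790 genes passed by limma in either direction, so the count of 0 members says nothing about collagen (23 members and 1993 of all genes had an unadjusted p under 0.05). Of the 38 members, the log2 fold change was above 0 for 33 among the 8 rats and for 37 among the 5. Leaving out 1 rat at a time gave 17 to 24 calls, beside 803 to 1461 of all genes, and 15 of the 23 genes passed in all 13 such fits.

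**Figure D1:**
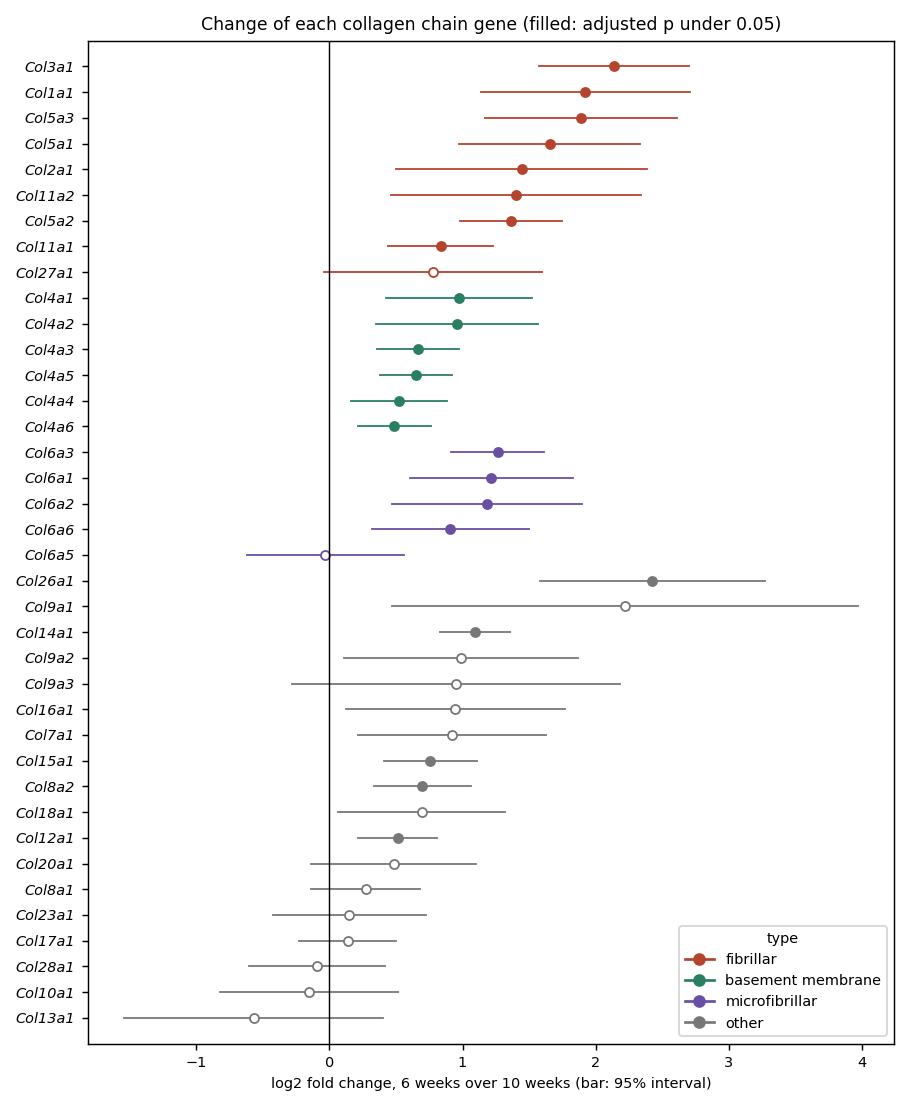
Each row is a collagen chain gene, grouped and coloured by type, and the horizontal axis is its log2 fold change of 6 weeks over 10 weeks from limma (6 and 7 rats), with the 95% interval as a bar and a filled point where the adjusted p was under 0.05. The 23 filled points all lie above 0, from 0.49 (Col4a6) to 2.43 (Col26a1), and no filled point lies below 0.

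The fibrillar chains had the largest median change of the 4 types, a difference between types that was not tested. Of 9 measured, 8 were higher at 6 weeks, against 8.71% of all genes. The median log2 fold change of the 9 was 1.44. Col3a1 encodes the single chain of type III collagen, which is found with type I collagen in pliable connective tissue. Its normalized counts at 6 weeks ran from 69539 through a median of 121046 to 135326, and at 10 weeks from 10482 through 26841 to 30630. The ages did not overlap, rat 74 being the lowest at 10 weeks by a wide gap. The log2 fold change of Col3a1 was 2.14 ± 0.26 (SE, adjusted p = 0.00029). Col1a1 encodes a chain of type I collagen, the main fibril-forming collagen of skin, bone and stroma. It ran from 27256 through 47610 to 77553 normalized counts at 6 weeks and from 4386 through 12637 to 18939 at 10 weeks, again without overlap. Its log2 fold change was 1.92 ± 0.36 (SE, adjusted p = 0.00434). At 6 weeks, rats 70, 75 and 80 lay above the other 3 rats in Col1a1.

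The 3 type V chains, which join type I fibrils and limit their diameter, were each higher in all 6 rats at 6 weeks than in any of the 7 at 10 weeks. That held for 3.29% of all genes. Col5a1 ran from 2451 through 4220 to 6695 normalized counts at 6 weeks and from 624 through 1151 to 1903 at 10 weeks, a log2 fold change of 1.65 ± 0.31 (SE, adjusted p = 0.00445). For Col5a2 the 3 values were 4322, 6387 and 7282 at 6 weeks and 1427, 2344 and 2795 at 10 weeks, a log2 fold change of 1.36 ± 0.18 (SE, adjusted p = 0.000391). Col5a3 ran from 268 through 555 to 1007 at 10 weeks and from 1268 through 2407 to 3539 at 6 weeks, a log2 fold change of 1.89 ± 0.33 (SE, adjusted p = 0.00285). The spread among rats of one age was narrower in Col5a2 than in its partner chains, as its smaller SE shows. Col5a2 and Col3a1 are neighbours on chromosome 9 in the RefSeq annotation of GRCr8.

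Fibrillar chains best known from cartilage followed. Col2a1, the chain of type II collagen, ran from 247 through 559.5 to 800 normalized counts at 6 weeks and from 94 through 137 to 433 at 10 weeks, and 4 of the 6 younger rats exceeded every older one. Its log2 fold change was 1.44 ± 0.44 (SE, adjusted p = 0.041), and the call was lost when any of 9 of the 13 rats was left out, with an adjusted p of up to 0.0915. Col11a2 and Col11a1 encode type XI chains, which occur in thin fibrils. Col11a2 ran from 54 through 81.5 to 153 at 6 weeks and from 16 through 25 to 94 at 10 weeks, a log2 fold change of 1.40 ± 0.43 (SE, adjusted p = 0.0447). This call too was lost without any of 9 rats, with an adjusted p of up to 0.0876. For Col11a1 the values were 90, 110.5 and 173 against 44, 62 and 93, a log2 fold change of 0.84 ± 0.18 (SE, adjusted p = 0.0094), and the ages overlapped by 1 rat at 6 weeks. The call on Col11a1 held without any single rat. Col27a1, the remaining fibrillar chain, had a log2 fold change of 0.78 (95% interval -0.04 to 1.60, adjusted p = 0.178), and the ages overlapped.

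**Figure D2:**
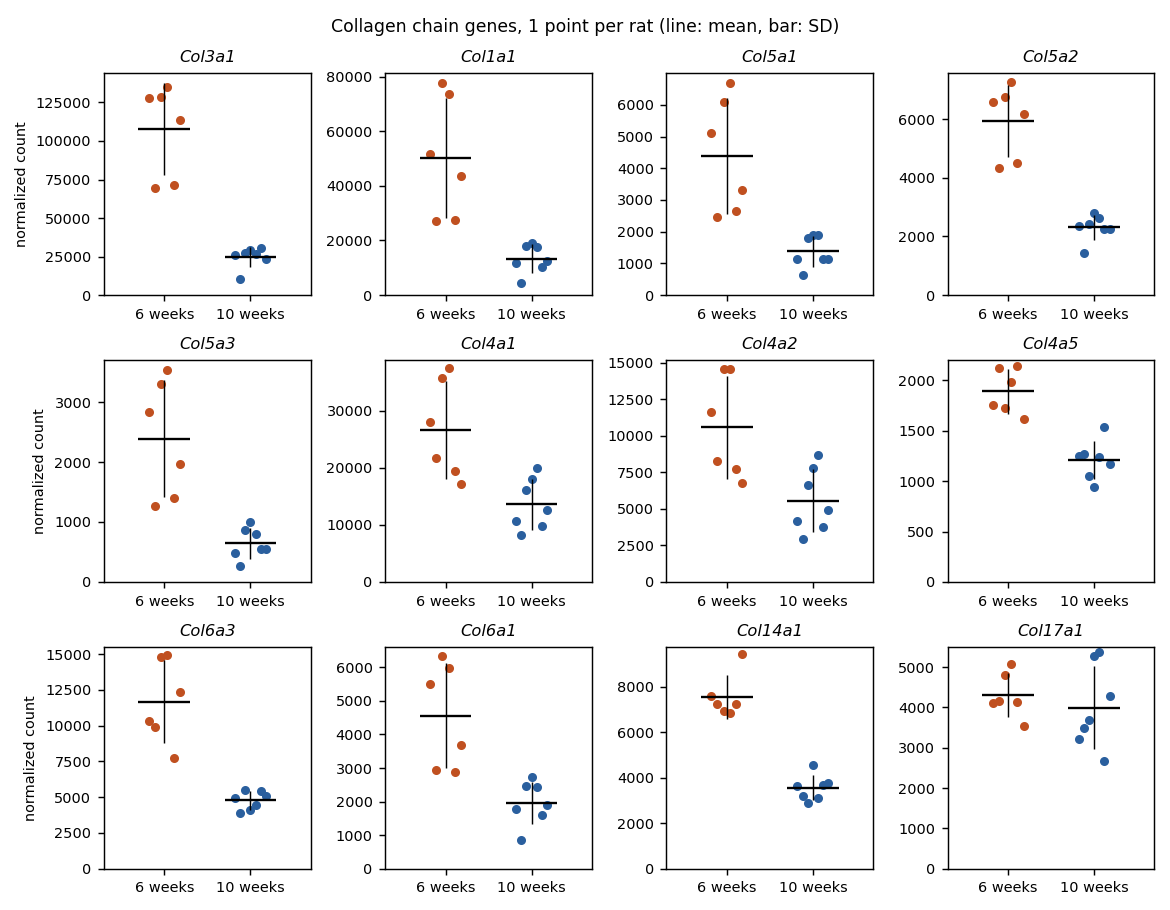
Each panel shows the normalized counts of 1 gene on a linear axis from 0, with 1 point per rat (6 at 6 weeks, 7 at 10 weeks), the mean as a line and the SD as a bar. In Col3a1, Col1a1, the 3 type V chains, Col4a5, Col6a3, Col6a1 and Col14a1 the ages do not overlap, in Col4a1 and Col4a2 they overlap in part, and in Col17a1 the older rats span the younger ones.

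All 6 type IV chain genes were higher at 6 weeks, against 8.71% of all genes. Their log2 fold changes ran from 0.49 to 0.97, with a median of 0.66. The 6 chains assemble in set combinations, of which the network built from Col4a1 and Col4a2 is the most widespread in tissues. Col4a2 and Col4a1 lie side by side and are transcribed away from each other, as are Col4a4 and Col4a3, and the stretches between or before their starts are shown because both genes of each pair were higher at 6 weeks. The first lines give the 76 bases between the starts of Col4a2 and Col4a1 (GRCr8 chr16:84885521-84885596, strand of Col4a1) and the 250 bases before the starts of Col4a3 (chr9:91323740-91323989, plus strand) and Col4a4 (chr9:91323578-91323827, minus strand), whose windows share 88 bases. The last lines give the same window for one fibrillar and one microfibrillar chain gene, Col5a2 (chr9:55090152-55090401, minus strand) and Col6a1 (chr20:11905440-11905689, plus strand). Capitals mark GGGCGG or its reverse complement, the core of the GC box. Sequences are from RefSeq.
Col4a2-Col4a1: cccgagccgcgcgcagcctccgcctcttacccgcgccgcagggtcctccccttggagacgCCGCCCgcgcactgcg
Col4a3: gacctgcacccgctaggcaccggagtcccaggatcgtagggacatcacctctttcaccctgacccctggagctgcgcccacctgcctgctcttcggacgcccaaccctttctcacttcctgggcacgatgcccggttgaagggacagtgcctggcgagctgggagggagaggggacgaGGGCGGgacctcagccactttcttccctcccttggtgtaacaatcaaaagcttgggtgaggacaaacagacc
Col4a4: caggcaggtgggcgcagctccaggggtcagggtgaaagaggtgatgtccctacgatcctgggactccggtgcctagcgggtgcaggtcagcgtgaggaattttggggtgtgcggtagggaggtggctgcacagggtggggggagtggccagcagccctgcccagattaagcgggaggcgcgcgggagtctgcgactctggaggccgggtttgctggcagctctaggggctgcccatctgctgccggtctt
Col5a2: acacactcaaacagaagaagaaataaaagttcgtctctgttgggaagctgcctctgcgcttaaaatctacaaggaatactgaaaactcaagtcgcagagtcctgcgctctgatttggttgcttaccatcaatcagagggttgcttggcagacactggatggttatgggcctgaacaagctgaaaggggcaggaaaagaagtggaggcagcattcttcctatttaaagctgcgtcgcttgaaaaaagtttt
Col6a1: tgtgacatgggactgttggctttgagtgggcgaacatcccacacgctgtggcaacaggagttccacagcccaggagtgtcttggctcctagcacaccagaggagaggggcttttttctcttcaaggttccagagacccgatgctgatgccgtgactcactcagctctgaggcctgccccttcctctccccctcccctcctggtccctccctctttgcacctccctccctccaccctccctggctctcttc

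The stretch of 76 bases between Col4a2 and Col4a1 was 78.9% G or C. Over the longer upstream windows of 250 bases, the median of all promoter entries was 51.2%. The windows of Col4a3 and Col4a4 held 62% and 66.4%, and those of Col5a2 and Col6a1 44.8% and 60%. A promoter entry was found for 31 of the 38 members. A member was counted once if any of its entries held the letters, while the share over all is per entry. The shares below therefore have unlike units. In the 250 bases upstream, searched on both strands, GGGCGG occurred in 18 of the 31 (58.1%) and in 30.5% of all entries, including 5 of the 6 basement membrane and 5 of the 6 matched fibrillar chain genes but 1 of the 4 matched microfibrillar ones. CCAAT occurred in 9 of the 31 (29%), against 34% of all entries, and TATAAA in 3 (9.68%), against 12.9%. The 3 genes with TATAAA were Col10a1, Col13a1 and Col17a1, none of which changed with age by the test. A match here is a match of letters and no evidence of binding.

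Col4a1 ran from 17162 through 24851 to 37393 normalized counts at 6 weeks and from 8144 through 12572 to 20030 at 10 weeks. Col4a2 ran from 6742 through 9953.5 to 14613 at 6 weeks and from 2953 through 4952 to 8690 at 10 weeks. In both genes the ages overlapped, and rats 70, 75 and 80 were the 3 highest of all 13. The log2 fold changes were 0.97 ± 0.25 (SE, adjusted p = 0.0221) for Col4a1 and 0.96 ± 0.28 (SE, adjusted p = 0.0373) for Col4a2. The call on Col4a1 was lost without rat 70 (adjusted p = 0.0513), and the call on Col4a2 without any of 7 rats (adjusted p of up to 0.0806).

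Col4a3, Col4a4 and Col4a5 encode the chains of the network typical of the kidney filter, and Col4a6 pairs with Col4a5 in other epithelial and smooth muscle basement membranes. Col4a5 ran from 1618 through 1870 to 2141 normalized counts at 6 weeks and from 938 through 1244 to 1542 at 10 weeks, with no overlap. Its log2 fold change was 0.65 ± 0.12 (SE, adjusted p = 0.00457). The values of Col4a3 were 143, 176 and 244 at 6 weeks and 103, 112 and 138 at 10 weeks, a log2 fold change of 0.67 ± 0.14 (SE, adjusted p = 0.00836). It too did not overlap between the ages, nor did Col4a6, with 146, 167 and 212 against 99, 127 and 140 and a log2 fold change of 0.49 ± 0.13 (SE, adjusted p = 0.0225). Col4a4 ran from 456 through 587.5 to 819 at 6 weeks and from 331 through 449 to 498 at 10 weeks, a log2 fold change of 0.52 ± 0.17 (SE, adjusted p = 0.0485). Col4a4 was the weakest of the 23 calls. It was lost without any of 10 rats (adjusted p of up to 0.0942), with median-ratio scaling (0.0578), upper quartile scaling (0.0514), a pseudocount of 0.1 (0.0501) and sample quality weights (log2 fold change 0.31, adjusted p = 0.0794), and had a log2 fold change of 0.26 (adjusted p = 0.267) among the 8 rats not set apart. Col4a6 was lost without rat 84 (adjusted p = 0.0549), and among those 8 rats it had a log2 fold change of 0.35 (adjusted p = 0.113).

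Of the type VI chains, 4 of 5 were higher at 6 weeks, against 8.71% of all genes. The median log2 fold change of the 5 was 1.18. The chains of Col6a1, Col6a2 and Col6a3 join as the basic unit of the beaded filament. Col6a3 ran from 7759 through 11343 to 14942 normalized counts at 6 weeks and from 3868 through 4930 to 5493 at 10 weeks. The ages did not overlap, and the log2 fold change was 1.26 ± 0.16 (SE, adjusted p = 0.000366). Col6a1 ran from 2886 through 4601 to 6333 at 6 weeks and from 865 through 1910 to 2721 at 10 weeks, also without overlap, and its log2 fold change was 1.22 ± 0.28 (SE, adjusted p = 0.0133). Col6a2, its neighbour on chromosome 20, had values of 2491, 4190.5 and 6458 at 6 weeks and 773, 1701 and 2814 at 10 weeks, a log2 fold change of 1.18 ± 0.33 (SE, adjusted p = 0.0302). Its ages overlapped and the call was lost without any of 5 rats (adjusted p of up to 0.0723).

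Col6a6 and Col6a5 encode long chains that can stand in for the chain of Col6a3, and they are neighbours on chromosome 8. Col6a6 ran from 110 through 156.5 to 283 normalized counts at 6 weeks and from 54 through 101 to 122 at 10 weeks, a log2 fold change of 0.91 ± 0.27 (SE, adjusted p = 0.0399) that was lost without any of 8 rats (adjusted p of up to 0.0787). The call on Col6a6 was also lost among the 8 rats not set apart (0.72, adjusted p = 0.0892) and with sample quality weights (0.60, adjusted p = 0.0754). Col6a5 lay between 12 and 33 at 6 weeks and between 14 and 35 at 10 weeks, and its log2 fold change was -0.03 (95% interval -0.62 to 0.56, adjusted p = 0.952). Whether the log2 fold changes of the neighbours Col6a6 and Col6a5 differ was not tested.

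Of the 18 chains of other types, 5 were higher at 6 weeks, against 8.71% of all genes. Col14a1 encodes a chain that sits on the surface of type I fibrils and affects how they pack. It ran from 6862 through 7247 to 9425 normalized counts at 6 weeks and from 2902 through 3658 to 4545 at 10 weeks. The ages did not overlap, and at 6 weeks rat 86 stood apart as the highest, against 7601 for the next rat. Col14a1 had the smallest adjusted p of the 38 members (log2 fold change 1.09 ± 0.12, SE, adjusted p = 0.000182). Col12a1, of the same fibril-associated class, moved less. It ran from 3261 through 3801 to 5268 at 6 weeks and from 2190 through 2726 to 3514 at 10 weeks, with overlap and a log2 fold change of 0.51 ± 0.14 (SE, adjusted p = 0.0257). Among the 8 rats not set apart its log2 fold change was 0.35 (adjusted p = 0.162).

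Col15a1 encodes a chain of a basement membrane zone collagen that links the membrane to the stroma. Its values were 1851, 2263 and 3404 normalized counts at 6 weeks and 1102, 1502 and 1770 at 10 weeks, without overlap, a log2 fold change of 0.76 ± 0.16 (SE, adjusted p = 0.00804). Among the same 8 rats it was 0.65 with an adjusted p of 0.0701. A row described as a Col15a1-like chain (LOC108348074) may share its reads, with 0 to 1625 normalized counts at 6 weeks and 0 to 774 at 10 weeks, so the level of Col15a1 is uncertain. Col8a2, a short-chain network collagen, ran from 83 through 131.5 to 163 at 6 weeks and from 56 through 81 to 100 at 10 weeks, a log2 fold change of 0.70 ± 0.17 (SE, adjusted p = 0.0148). Only 1 of its 6 younger rats lay within the range of the older ones. Col26a1 was at 13, 21 and 33 normalized counts at 6 weeks and at 1, 3 and 12 at 10 weeks. Its log2 fold change of 2.43 ± 0.39 (SE, adjusted p = 0.0016) was the largest of all 38, on the fewest counts of the 23, and rat 81 was the highest at 10 weeks.

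Of the 15 members that did not pass the test, Col27a1 and Col6a5 are given above. Col7a1, the chain of the anchoring fibrils that tie basement membrane to stroma, had a log2 fold change of 0.92 (95% interval 0.21 to 1.63, adjusted p = 0.0721). Col16a1 (0.95), Col18a1 (0.69), Col9a2 (0.99), Col9a3 (0.95) and Col20a1 (0.48) did not pass either. Among the 8 rats not set apart, each of these 5 and Col7a1 had an adjusted p from 0.0134 to 0.0287, and Col27a1 had 0.0273. Those 8 rats were chosen by a component of these same values, and 13.4% of all genes were higher at 6 weeks among them. Their adjusted p-values are therefore no separate check. In Col9a3, rat 81 at 10 weeks was the highest of the 13, at 300. Col9a1 had a log2 fold change of 2.22 (95% interval 0.47 to 3.97, adjusted p = 0.0791), with a value of 0 in rat 80 at 6 weeks and in rats 78 and 81 at 10 weeks. Without rat 80 its adjusted p was 0.00487, and among the 8 rats not set apart, which leave out rat 80 too, it was 0.0051.

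None of the 3 membrane-spanning collagens passed the test. Col17a1 encodes a transmembrane chain of the hemidesmosome, the junction that fastens basal epithelial cells to the basement membrane. It ran from 3545 through 4149.5 to 5076 normalized counts at 6 weeks and from 2668 through 3680 to 5362 at 10 weeks. The older rats spanned the younger ones, and the log2 fold change was 0.14 (95% interval -0.22 to 0.50, adjusted p = 0.605). Col23a1 and Col13a1, the other transmembrane chains, had log2 fold changes of 0.15 (adjusted p = 0.733) and -0.57 (95% interval -1.54 to 0.40, adjusted p = 0.408). Col8a1 (0.27), Col10a1 (-0.15) and Col28a1 (-0.09) had intervals that include 0. None of these 6 genes passed the test among the 8 rats not set apart either.

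As a sum, the 38 genes took 1.25% to 2.56% of all normalized counts at 6 weeks and 0.339% to 0.807% at 10 weeks. The rows for the second chain of type I collagen, also fibrillar, fell outside the symbol rule and are not counted as collagen here. Fibrillar chains made up 59.8% to 70.0% of the collagen counts in a rat at 6 weeks and 35.2% to 54.4% at 10 weeks. The basement membrane share of the collagen counts was 10.9% to 18.7% at 6 weeks and 19.1% to 27.5% at 10 weeks, and that of the other types 8.58% to 12.9% and 15.6% to 27.3%. None of these 3 shares overlapped between the ages, while the microfibrillar share did, at 7.52% to 8.74% and 8.44% to 11.3%. The shares of one rat add up to the whole, so a higher fibrillar share goes with lower shares of the rest. In absolute terms the basement membrane chains took 0.169% to 0.416% of all counts at 6 weeks and 0.0888% to 0.222% at 10 weeks, ranges that overlap. Shares of counts also follow transcript length, so they compare ages and not the numbers of molecules of different chains.

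Rats of one age differed from each other in many collagen genes at once. At 6 weeks, 32 of the 38 members were highest in rat 75 or rat 80, and at 10 weeks 28 were highest in rat 78, 81 or 83, the 5 rats that the first component set apart. At 10 weeks, 24 members were lowest in rat 74, which also had the smallest collagen share of any rat, 0.339%. These counts of extreme rats were not made over all genes, and the component comes from the whole table. They therefore show nothing particular to collagen. The plot of deviations by rat shows these columns across the types.

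**Figure D3:**
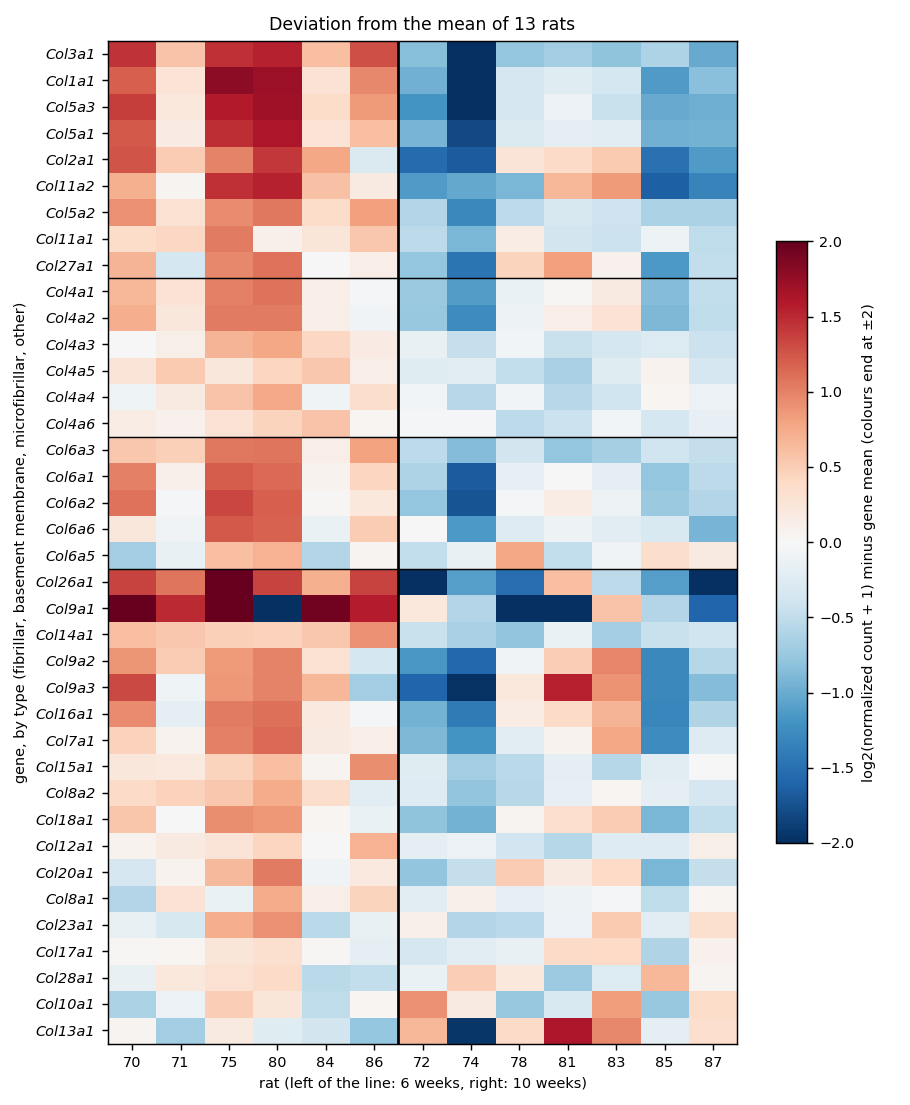
Rows are the 38 collagen chain genes by type, columns are the 13 rats (6 weeks left of the line, 10 weeks right), and colour is log2(normalized count + 1) minus the gene's mean over all rats, with colours ending at ±2. The fibrillar rows are red in nearly every younger rat and blue in most older ones, with rats 75 and 80 the deepest red and rat 74 the deepest blue.

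Chains that share a triple helix, a fibril or a type could be compared within each rat, where the scaling of the library cancels. Some pairs, such as Col3a1 with Col1a1 and Col4a5 with Col4a1, are chains of different triple helices. Of 10 pairs listed, 9 had both chains among the members, each with a mean of at least 10 normalized counts. For these 9 chain pairs the log2 ratio of normalized counts was tested between the ages by a two-sided exact permutation test. It ran over all 1716 splits of the 13 rats, with a smallest possible p of 0.001166. No pair passed, with adjusted p from 0.495 to 0.846, and none had an unadjusted p under 0.05. Col4a1 and Col4a2 kept the steadiest ratio. It lay between 1.264 and 1.395 at 6 weeks and between 1.204 and 1.463 at 10 weeks on the log2 scale, while Col4a1 itself ran from 8144 to 37393 normalized counts. The means were 1.33 ± 0.048 (SD, n = 6) and 1.31 ± 0.092 (SD, n = 7), a difference of 0.018 (95% interval -0.075 to 0.108, exact permutation p = 0.692). The log2 ratio of Col6a1 to Col6a2 had a wider spread, at 0.13 ± 0.14 and 0.089 ± 0.12 (SD), a difference of 0.036 (exact permutation p = 0.596).

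Other pairs varied more from rat to rat. The log2 ratio of Col3a1 to Col1a1 was 1.17 ± 0.29 (SD) at 6 weeks and 0.96 ± 0.38 at 10 weeks, a difference of 0.21 (95% interval -0.22 to 0.65, exact permutation p = 0.275). For Col5a1 over Col5a2 the difference was 0.29 (95% interval -0.12 to 0.70, exact permutation p = 0.139), for Col4a5 over Col4a6 it was 0.16 (p = 0.203) and for Col4a3 over Col4a4 it was 0.14 (p = 0.244), both by the same exact test. The log2 ratio of Col4a5 to Col4a1 spanned from -4.37 to -2.66 over the 13 rats, and its difference between the ages was -0.32 (95% interval -1.07 to 0.42, exact permutation p = 0.344). Col6a3 over Col6a1 differed by 0.047 (exact permutation p = 0.846) and Col8a1 over Col8a2 by -0.43 (exact permutation p = 0.148). A p that misses the threshold does not show equal ratios.

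**Figure D4:**
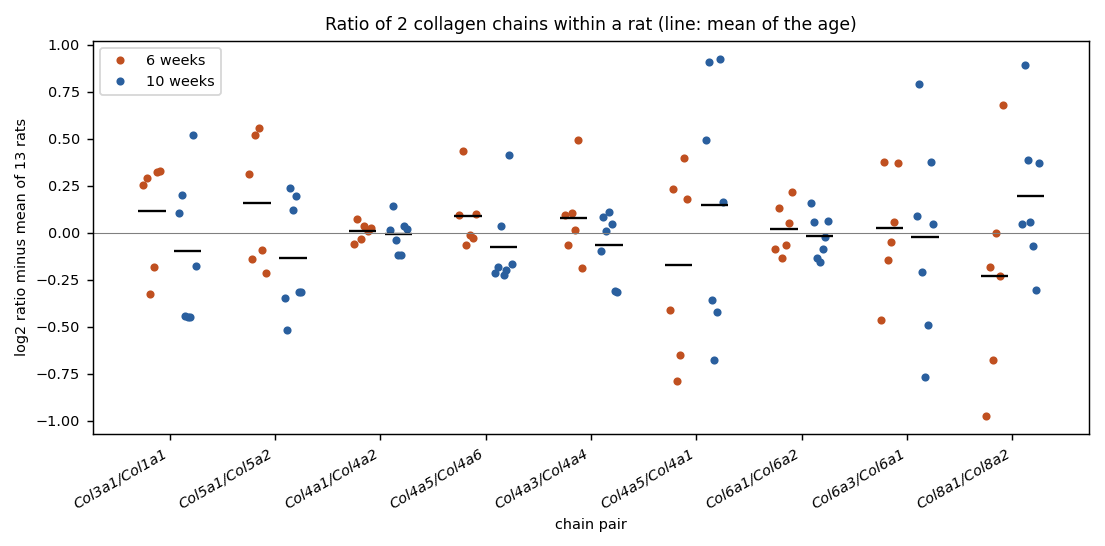
For each of 9 chain pairs, points show the log2 ratio of the normalized counts (+ 1) in a rat minus the mean over the 13 rats, at 6 weeks (left, 6 rats) and 10 weeks (right, 7 rats), with the mean of each age as a line. Col4a1/Col4a2 stays within the narrowest band around 0, Col6a1/Col6a2 spreads more, and Col4a5/Col4a1 and Col8a1/Col8a2 spread widest, with the ages overlapping in every pair.

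Genes that act in making collagen and passed the test were, with 1 exception, higher at 6 weeks as the chains were. Of 21 measured genes for modification and folding in the endoplasmic reticulum, 10 were higher at 6 weeks and none at 10 weeks, with a median log2 fold change of 0.52 against 0.028 over all genes. By the same test, 8.71% of all genes were higher at 6 weeks and 7.39% at 10 weeks. The largest changes were in the prolyl 3-hydroxylase P3h1 (1.45 ± 0.16, SE, adjusted p = 0.000182), its relative P3h4 (1.31 ± 0.23, SE, adjusted p = 0.00245), the collagen chaperone and isomerase Fkbp10 (1.16 ± 0.13, SE, adjusted p = 0.00018) and P3h3 (1.08 ± 0.24, SE, adjusted p = 0.00954). Serpinh1, the collagen-specific chaperone HSP47, ran from 2608 through 3737.5 to 4960 normalized counts at 6 weeks and from 1084 through 1826 to 2923 at 10 weeks, a log2 fold change of 1.01 (adjusted p = 0.00812). P4hb, the protein disulfide isomerase that is also a subunit of prolyl 4-hydroxylase and serves many other proteins, had a log2 fold change of 0.13 (adjusted p = 0.421).

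The 13 measured genes for procollagen processing and crosslinking had a median log2 fold change of 0.50. At 10 weeks 1 was higher, which is near the 7.39% of all genes called in that direction. At 6 weeks 6 were higher, against 8.71% of all genes. The lysyl oxidase relatives Loxl2 (1.67 ± 0.21, SE, adjusted p = 0.000328) and Loxl1 (1.65 ± 0.39, SE, adjusted p = 0.0148), which crosslink collagen and elastin, were among them. So were Pcolce, an enhancer of the protease that trims the procollagen end (1.67 ± 0.29, SE, adjusted p = 0.00262), and Sparc, a collagen-binding matrix protein (1.42 ± 0.15, SE, adjusted p = 0.000124). Sparc ran from 19200 through 26003 to 29653 normalized counts at 6 weeks and from 6596 through 9381 to 11598 at 10 weeks. Adamts3, a procollagen N-propeptidase, went the other way, from 2143 through 4058.5 to 5214 at 6 weeks and from 4387 through 6677 to 7165 at 10 weeks. Its log2 fold change was -0.77 ± 0.20 (SE, adjusted p = 0.0222), and the call was lost without rat 84. Its relative Adamts14, at 18 to 56 and 5 to 35 normalized counts, had a log2 fold change of 1.25 (adjusted p = 0.0397), a call lost without any of 9 rats, and Adamts2 had 0.50 (adjusted p = 0.0992).

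The 9 measured collagen receptors had a median log2 fold change of 0.56. Among them 4 were higher at 6 weeks, against 8.71% of all genes, and none at 10 weeks. They were Mrc2, an uptake receptor for collagen (1.16, adjusted p = 0.00886), the integrin chain Itga11 (1.13, adjusted p = 0.0148), Antxr2 (0.73, adjusted p = 0.0289, lost without any of 4 rats) and Antxr1 (0.70, adjusted p = 0.00107). The epithelial collagen receptor Ddr1 had a log2 fold change of 0.23 (adjusted p = 0.544) and the shared integrin beta chain Itgb1 one of 0.13 (adjusted p = 0.436).

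**Figure D5:**
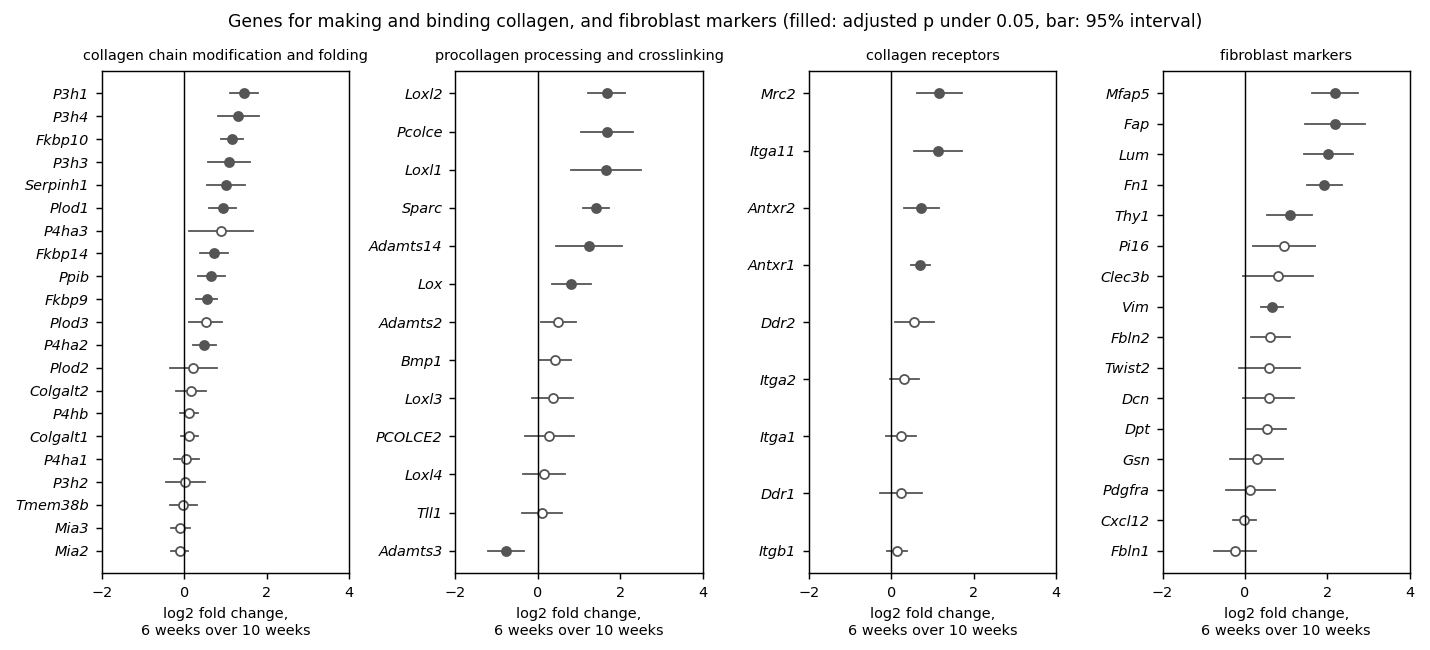
Each panel lists the measured genes of 1 list, with the log2 fold change of 6 weeks over 10 weeks on the horizontal axis, the 95% interval as a bar and a filled point where the adjusted p was under 0.05. Filled points lie above 0 in all panels except for Adamts3, and genes such as P4hb, Itgb1 and Pdgfra sit close to 0.

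Some lists of cell type markers moved with these results and others did not, and the part of these markers in the collagen result was not tested. Of 16 measured fibroblast markers 6 were higher at 6 weeks and none at 10 weeks, with a median log2 fold change of 0.63. The share of all genes higher at 6 weeks was 8.71%. The 6 were Mfap5 (2.19), Fap (2.19), Lum (2.02), Fn1 (1.93), Thy1 (1.09) and Vim (0.65). Pdgfra (0.13, adjusted p = 0.78), Dcn (0.57, adjusted p = 0.197), Dpt (0.52, adjusted p = 0.124) and Fbln1 (-0.24, adjusted p = 0.518) did not pass. The summed level of the list ran from 38645 to 65087 normalized counts at 6 weeks and from 16538 to 35524 at 10 weeks, and without Fn1 from 24782 to 37527 and from 12815 to 29794, ranges that then overlap. No fibroblast marker was at 0 in any rat.

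Of 6 pericyte markers 3 were higher at 6 weeks, namely Pdgfrb (0.73), Cspg4 (0.82, adjusted p = 0.0452, lost without any of 9 rats) and Abcc9 (0.73), and the summed level ran from 4891 to 7506 normalized counts at 6 weeks and from 2551 to 4390 at 10 weeks. Of 7 endothelial markers 1, Cldn5, was higher at 6 weeks (adjusted p = 0.0368, lost without any of 8 rats), with sums of 6064 to 10336 and 5526 to 8870. Of 6 adipocyte markers Adipoq and Plin1 were higher at 6 weeks on few counts, both being at 0 in some rat at 10 weeks, and the sums of 1765 to 2623 and 1910 to 3010 overlapped. None of 6 macrophage markers (sums of 1172 to 2033 and 1048 to 2407) and none of 6 Schwann cell markers (3746 to 6278 and 4646 to 5713) passed. Of the epithelial lists, 1 of 10 basal markers (Cnn1, log2 fold change -0.46, adjusted p = 0.0357) and 1 of 11 luminal markers (Epcam, -0.39, adjusted p = 0.0454) were higher at 10 weeks and none at 6 weeks. The call on Cnn1 was lost without any of 9 rats and that on Epcam whichever of the 13 rats was left out. By the same test, 8.71% of all genes were higher at 6 weeks and 7.39% at 10 weeks. The 1 call in each of the endothelial, basal and luminal lists is near what those shares give. The sums were 26222 to 40734 and 36311 to 47289 for the basal and 29762 to 59522 and 42536 to 68650 for the luminal list.

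The gene for the second chain of type I collagen was not among the members by its symbol. The table held 2 rows with the symbol NEWGENE_621351 that it describes as the type I alpha 2 chain, and reads may have been split between them, so their levels are uncertain. One (ENSRNOG00000052925) ran from 13948 through 23762 to 29872 normalized counts at 6 weeks and from 2870 through 6775 to 8007 at 10 weeks, a log2 fold change of 1.83 (adjusted p = 0.000744). The other (ENSRNOG00000011292) ran from 6852 through 12853 to 24899 and from 651 through 2563 to 7164, a log2 fold change of 2.21 (adjusted p = 0.0129). Both rows were higher at 6 weeks, as Col1a1 was.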

How the data were processed

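RNA-seq was available for 13 rats, 6 at 6 weeks and 7 at 10 weeks, with the age taken from the sample labels. The authors estimated counts with RSEM v1.2.22 and deposited values scaled by library and rounded to whole numbers, whose unit is treated as a score and called normalized counts here. The submitters' processing notes name rn5 as the build, and the gene annotation is not given in the sources used here. The authors' table also holds their own edgeR comparison (fold change, mean abundance, test statistic, p-value and false discovery rate) and location columns, which were not used. All 13 value columns were matched to a rat and 0 were not.

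Values were tested as log2(value + 1) with limma 3.58.1 in R 4.3.3. A mean of 1 was the minimum for a gene, which all 14790 genes met. The p-values were adjusted by Benjamini-Hochberg and the threshold was 0.05. The steps were tested on simulated data. Values of 0 and other low values are less precise in libraries scaled up by the authors, and the depth before scaling is not given in the sources used here. Each rat is a separate animal, but nothing says whether glands were processed on the same day.

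Chain ratios were compared by an exact permutation test, with intervals by inversion of that test. Members, types, partner lists and marker lists were chosen with earlier results of these data known. Every called member and the 2 highest of each type are given with their values. From each partner list the called genes with the largest changes, up to 4 a direction, and the 2 highest are named, while marker lists are given as counts and summed levels. Genes given outside that rule, such as single markers, Adamts2 and Adamts14, were chosen after their values were seen. Alternatives comprised other scalings, pseudocounts, filters, limma settings, a residual component and each rat left out. Sequences and gene neighbours are from RefSeq (GRCr8) and were matched by symbol. Col24a1, Col6a4, Col19a1, Col21a1, Col22a1 and Col25a1 were not analysed here. Python 3.11.15 was used for summaries.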

Additional observations from a re-analysis of the deposited data

Results flagged for a closer look

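In 4 of 76 groups (38 genes at each age) a single rat stood apart by Dixon's criterion at the 95% level, a rate near the 1 in 20 that chance gives. Rat 74 was the lowest at 10 weeks for Col3a1, at 10482 normalized counts against 23312 for the next rat, and for Col5a2, at 1427 against 2246. Rat 86 was the highest at 6 weeks for Col14a1, at 9425 against 7601. Rat 81 was the highest at 10 weeks for Col26a1, at 12 against 5. The calls on these 4 genes held when any rat was left out.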

How the results depend on the processing

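The count of 23 collagen chain genes higher at 6 weeks stayed within 22 to 30 under the other scalings, pseudocount, filters and limma settings, at 17 to 24 with 1 rat left out and at 26 in the larger set of 8 rats, and it was 0 in the smaller set of 5 rats, where 0 of all 14790 genes passed. The count of members higher at 10 weeks was 0 throughout. Calls over all genes at 6 weeks moved as well, from 1288 in the main fit to 1203 with median-ratio scaling. The highest member counts, 28 with sample quality weights and 30 with the residual component, came where 3009 and 1875 of all genes passed. With 1 rat left out, 803 to 1461 of all genes passed in that direction, and in the larger set 1987. Of 43 partner genes, 20 were higher at 6 weeks, with 16 to 21 when 1 rat was left out and 0 in the smaller set. The 1 partner higher at 10 weeks, Adamts3, gave counts of 0 to 1 with 1 rat left out and 0 in either set. No chain pair passed under any setting. Both rat sets were chosen after seeing the data. The sign turned for members near 0. Col6a5 gave 0.0153 with library size scaling and 0.577 in the smaller set, Col10a1 gave 0.443 and Col28a1 gave 0.602 there, and Col23a1 gave -0.244 with sample quality weights and -0.196 in the larger set. With 1 rat left out Col6a5 gave -0.170 to 0.107, Col23a1 -0.0150 to 0.274 and Col28a1 -0.220 to 0.0120. Among the ratios, Col6a3 over Col6a1 gave -0.0443 as a difference of medians. With 1 rat left out it ranged from -0.0769 to 0.182, Col6a1 over Col6a2 from -0.00308 to 0.0671 and Col4a1 over Col4a2 from -0.00085 to 0.0423. The cause of these turns was not tested. No paired analysis was possible because the rat numbers are not shared between the ages. Values below about 10 normalized counts, as in Col26a1 and Col9a1, are limited by depth.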
